A study of Drosophila melanogaster with 6 samples.

Results

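Glutathione S-transferases (GSTs) were followed in RNA from the fat body of adult Drosophila females in which the phosphoinositide 3-kinase Dp110 was inhibited. Every gene of the count table whose FlyBase identifier mapped to a current symbol beginning with GstD, GstE, GstO, GstS, GstT or GstZ was taken as a member, irrespective of its values. This gave 35 of the 15682 genes listed. The delta class (GstD) held 11 of them, the epsilon class (GstE) 14, the omega class (GstO) 3, the sigma class (GstS) 1, the theta class (GstT) 4 and the zeta class (GstZ) 2.

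FB-Dp110DN flies carried the constitutive fat body driver FB-GAL4 together with a UAS-Dp110DN transgene, which encodes a myc-tagged Dp110 whose ATP-binding domain is defective. FB-GAL4 flies carried the driver alone. All flies were females aged 7 to 10 days in the white Dahomey background, with Wolbachia, and each group held 3 libraries. The 3 replicates were prepared on different dates with mutant and control in parallel, so libraries of the same number form a pair. According to the labels 5 flies made up a sample, whereas the methods name a larger number of fat bodies, and which of these holds was not settled.

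GST enzymes join the tripeptide glutathione to reactive compounds, which makes these more soluble and easier to export, and several members also reduce peroxides. The delta and epsilon classes are expanded in insects and are best known for the handling of insecticides and plant toxins. Omega enzymes act mainly as thiol transferases, and zeta enzymes isomerise an intermediate of tyrosine breakdown. The fat body performs much of what liver and adipose tissue do in mammals, detoxification included, and the transcription factor Cnc with its inhibitor Keap1 is known to control GstD1 and other detoxification genes in the fly.

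Total counts lay between 22607341 and 36870161 per library, so that 3 counts, taken as the floor of detection, corresponded to 0.0814 to 0.133 counts per 1e6 counts (CPM). These floors cover counting error only, and all CPM values below use a library's total after TMM scaling. Pi3K92E, which encodes Dp110 and also collects the reads of the transgene, stood at 892, 1246 and 343 CPM in FB-Dp110DN libraries 1, 2 and 3 and at 81.0, 89.9 and 94.1 CPM in the FB-GAL4 libraries, so that the groups did not overlap. Its log2 fold change of 3.05 (SE 0.40) had an adjusted p of 0.157 by edgeR and 5.2e-17 by DESeq2, and of 1.7e-31 by edgeR without replicate 3. Replicate 3 of both groups stood apart from the other 4 libraries along the first principal component, which held 46.6% of the variance. Summed muscle markers were higher there (22674 and 42579 CPM against 6607 to 10595 CPM), and summed fat body markers were lowest in FB-GAL4 replicate 3 (23436 CPM against 53954 to 74286 CPM in the other libraries). In whole-tissue RNA, fewer cells of a type and less RNA per cell cannot be told apart.

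After TMM scaling, the summed CPM of GST transcripts was somewhat higher in FB-Dp110DN within each pair, and the groups overlapped. The summed CPM of the 35 members was 2237, 2072 and 3013 in FB-Dp110DN libraries 1, 2 and 3, and 2117, 1696 and 2336 in the FB-GAL4 libraries. Without GstS1 the sums were 2107, 1945 and 1547 CPM against 2003, 1575 and 1381 CPM. The FB-Dp110DN library was therefore the higher in each of the 3 pairs. No test was run on these sums.

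**Figure D1:**
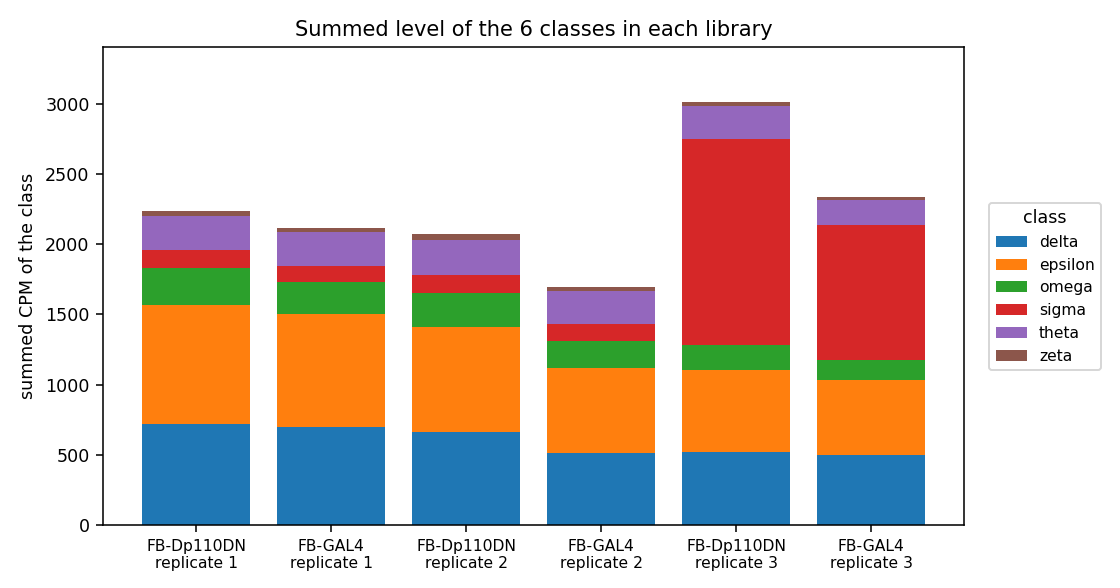
Stacked bars give the summed CPM of the 6 GST classes in each of the 6 libraries, ordered by pair. The delta, epsilon, omega and theta bars keep similar proportions in replicates 1 and 2, and the sigma bar (GstS1 alone) grows from 115 to 130.1 CPM in those libraries to 1466 and 955 CPM in replicate 3.

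In 32 of the 35 members the counts were high enough for the test. GstD6, GstD11 and GstE4 fell below the filter on low counts. GstD6 had 0, 1 and 1 counts in the FB-Dp110DN libraries and 4, 0 and 14 in the FB-GAL4 libraries. GstD11 had 5, 7 and 15 counts against 5, 3 and 7. GstE4 had 1 count in all 6 libraries together. These 3 genes, named here after their values were seen, thus had at most 15 counts in a library, and no fold is given for them.

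Levels differed by orders of magnitude between members. Per kilobase of exon (CPM/kb, mean of 6 libraries), GstD1 led with 643 CPM/kb, a level above 98.6% of all genes tested. GstS1 followed with 214, GstE12 with 182, GstE9 with 156, GstT4 with 119, GstO3 with 107 and GstE6 with 101 CPM/kb. The neighbours GstO3, GstE6 and GstE3 (98.8 CPM/kb) overlapped in their values over the libraries, and the mean of GstS1 rests on replicate 3. At the lower end of the tested members were GstE2 (2.73 CPM/kb), GstE14 (1.79 CPM/kb) and GstD4 (0.82 CPM/kb). GstE9, GstE6, GstE3, GstE2 and GstD4 lie outside the rule for named genes and are given to complete the order.

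**Figure D2:**
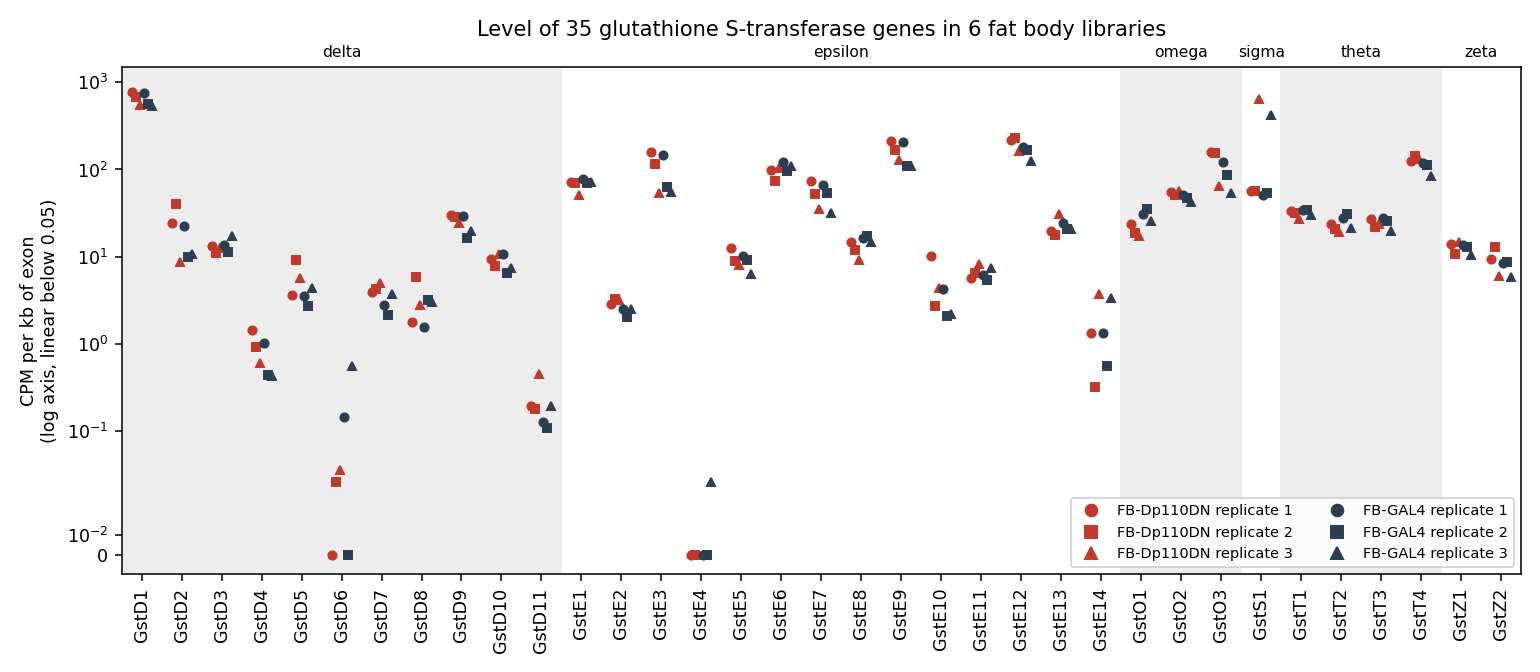
CPM per kb of exon on a log axis (linear below 0.05) is plotted for each of the 35 members in each of the 6 libraries, grouped by class. GstD1 is highest at a mean of 643 CPM/kb, GstE4 lies at or near 0, and for GstS1 and GstE14 the triangles of replicate 3 lie above the other libraries of both groups.

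No member passed the test of FB-Dp110DN against FB-GAL4 at an adjusted p under 0.05 (edgeR quasi-likelihood test with replicate number as a block, Benjamini-Hochberg adjustment over 10398 genes), where 0.0289% of all genes tested did. The smallest adjusted p of a member was 0.157. With DESeq2 (Wald test, same block) the count was 0 as well, against 10.7% of all genes with an adjusted p, and the smallest adjusted p of a member was 0.052. At an unadjusted p under 0.05 the edgeR test held 5 of the 32 members (15.6%), 3 higher and 2 lower in FB-Dp110DN, against 25.6% of all genes tested. This share lay below the background. Without the block 1 member reached that level, GstO1, and 0 genes of the whole table were called.

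Without replicate 3 the count of members called was 1, GstD2, which was named after its values were seen. The same setting raised the calls over all genes from 3 to 875, where the spread between the 4 remaining libraries was estimated as common to all genes. In the model with the block and all libraries, a p-value sets the group difference against its variation between the 3 pairs. The edgeR test moderates that variation toward a trend over all genes, with a prior of 4.05 degrees of freedom, so it is not the gene's own spread alone. The pairs were prepared on different dates, and beyond those dates nothing says how the samples of a group were kept separate.

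Estimates were higher in FB-Dp110DN for 22 of the 32 members tested (68.8%), where 53.5% of all genes had a higher estimate. Their median log2 fold change was 0.22, beside 0.04 over all genes. The median was 0.37 in the delta class (0.57 without replicate 1 and 0.16 without replicate 2), 0.10 in epsilon, 0.22 in omega, 0.29 for the lone sigma gene, -0.05 in theta and 0.19 in zeta. The family median was 0.34 without replicate 1 and 0.13 without either replicate 2 or replicate 3. In the single pairs the family median was 0.05, 0.27 and 0.24 for replicates 1, 2 and 3, against -0.01, 0.04 and 0.03 over all genes. These medians describe the members and were not tested. Several marker lists differed between the groups as well, whereas eggshell markers had a median log2 fold change of -0.12 (5 higher and 6 lower). Fat body markers had a median log2 fold change of 0.57 (9 of 10 higher), muscle markers 0.62 (12 of 13 higher), neuronal markers 0.49 (4 of 4 higher) and germline markers -0.58 (9 of 10 lower). Their part in the family's values was not tested.

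The sign was the same in all 3 pairs for 21 members, or 65.6% against 56% of all genes. Of these 14 were higher (43.8% of those tested, against 28.3% of all genes) and 7 lower. The CPM ranges of the groups did not overlap for 5 members (15.6%, against 32.6% of all genes). Those were GstD7, GstE2, GstO2 and GstT4, each higher in every FB-Dp110DN library, and GstO1, lower in every FB-Dp110DN library. Over all genes tested, 11.6% were higher without overlap and 21% were lower without overlap. GstE2, outside the rule for named genes, held 2.55, 2.95 and 2.82 CPM against 2.22, 1.83 and 2.22 CPM, with a log2 fold change of 0.41 (SE 0.28).

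**Figure D3:**
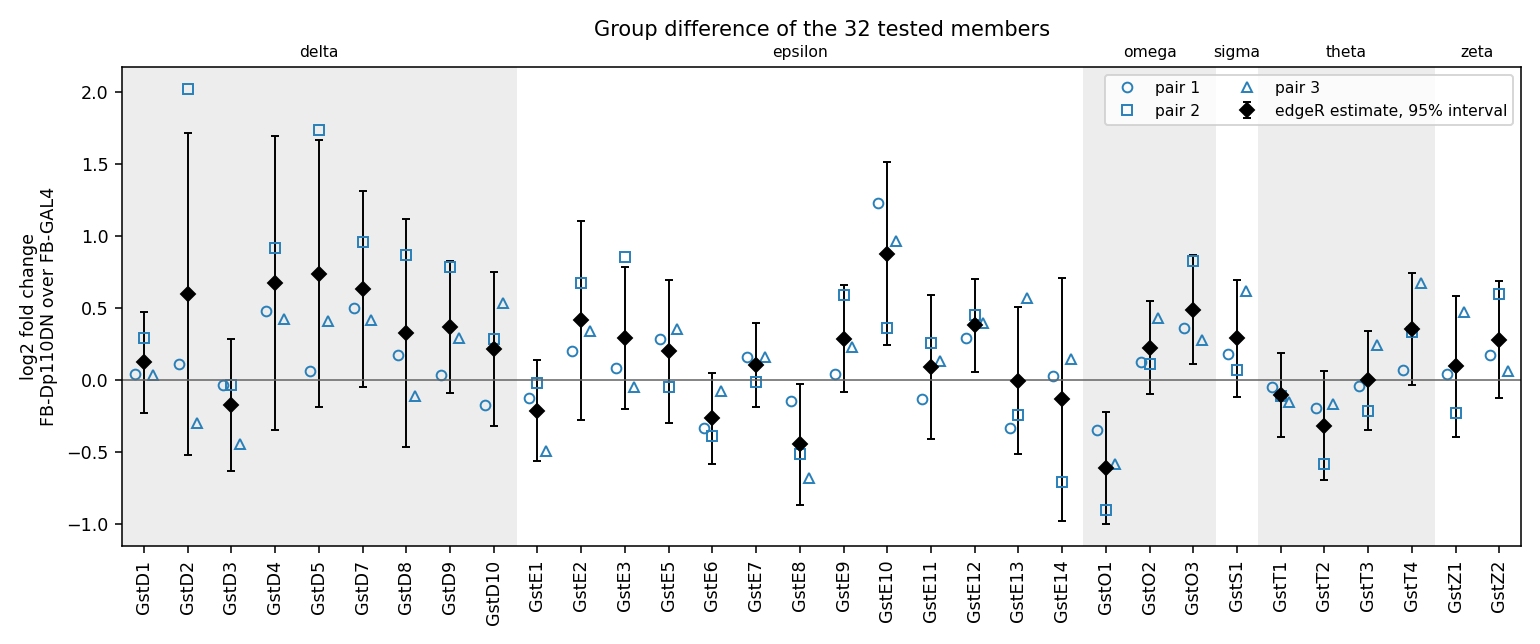
Log2 fold change of FB-Dp110DN over FB-GAL4 is shown for the 32 tested members as the edgeR estimate with its 95% interval (diamonds) and as the value of each pair (open symbols). The interval excludes 0 for GstE10, GstE12 and GstO3 on the higher side and for GstE8 and GstO1 on the lower side, and in the delta class the pair 2 values of GstD2 (2.02) and GstD5 (1.73) are the farthest from 0.

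All 11 delta genes lie in a single cluster on chromosome arm 3R, with GstD10, GstD9 and GstD1 on the minus strand and the other 8 on the plus strand. GstD1, a widely used reporter of oxidative stress, is known to break down the insecticide DDT. Its level was 653, 577 and 462 CPM in FB-Dp110DN libraries 1, 2 and 3 and 636, 472 and 451 CPM in the FB-GAL4 libraries. GstD1 thus supplied between 87.3% and 91.9% of the summed CPM of its class in every library, and its groups overlapped. For GstD1 the log2 fold change was 0.12 (SE 0.14, 95% interval -0.23 to 0.47, edgeR adjusted p = 0.595).

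The remaining delta genes were far less abundant, and their estimates were larger and less certain. GstD9 held 23.4, 22.5 and 19.2 CPM against 22.9, 13.0 and 15.7 CPM, a log2 fold change of 0.37 (SE 0.19). Its pairs gave 0.03, 0.78 and 0.29, and the estimate was 0.57 without replicate 1 and 0.16 without replicate 2. GstD7 held 2.99, 3.21 and 3.77 CPM against 2.10, 1.62 and 2.81 CPM, a log2 fold change of 0.63 (SE 0.28, edgeR adjusted p = 0.212). Every FB-Dp110DN library was above every FB-GAL4 library for GstD7, by 0.50, 0.96 and 0.42 on the log2 scale in the 3 pairs. GstD5 held 3.08, 7.70 and 4.86 CPM against 2.96, 2.27 and 3.65 CPM, a log2 fold change of 0.74 (SE 0.38, edgeR adjusted p = 0.263). Replicate 2 carried this difference, with 1.73 in that pair against 0.06 in pair 1, and the estimate was 0.24 without it.

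Pair 2 also carried the estimate of GstD2. This gene held 17.7, 29.7 and 6.43 CPM against 16.4, 7.26 and 7.93 CPM, and its pairs gave 0.11, 2.02 and -0.30. With all libraries the log2 fold change was 0.60 (SE 0.46, edgeR adjusted p = 0.422). Without replicate 3 it was 1.07 (edgeR adjusted p = 0.005), and without replicate 2 it was -0.09. Over the 9 delta genes tested, the median of pair 2 was 0.87, and those of pairs 1 and 3 were 0.06 and 0.29. Of these genes 8 had a higher estimate, and GstD3 a lower one (-0.17, SE 0.19). GstD2 and GstD3 are outside the rule for named genes.

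**Figure D4:**
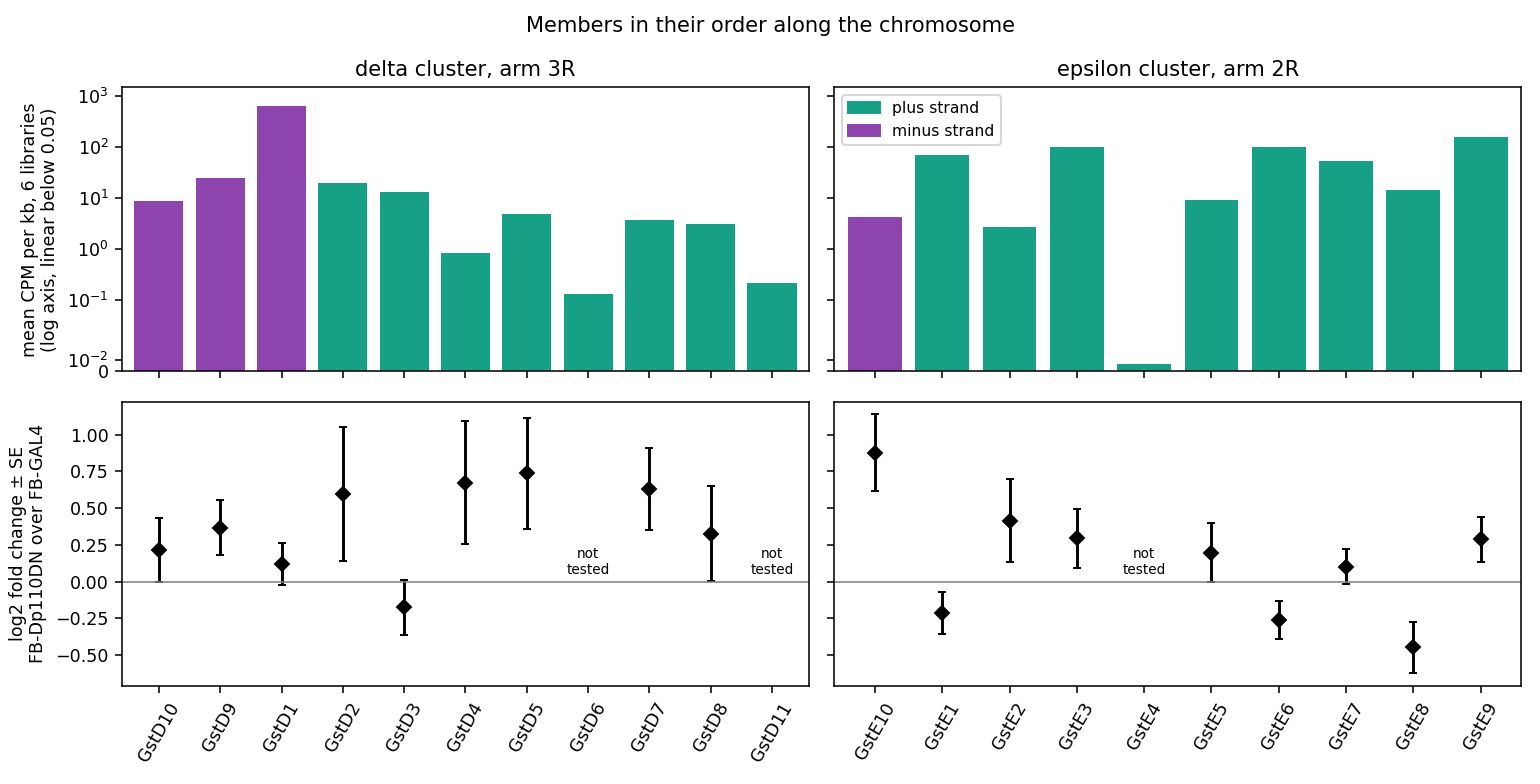
The delta and epsilon clusters are drawn in gene order, with the mean CPM per kb over 6 libraries on a log axis (top, bars coloured by strand) and the log2 fold change with its SE (bottom). Neighbours differ widely in level, as with GstD1 at 643 CPM/kb beside GstD2 at 19.4 CPM/kb, and the lower estimates in the epsilon cluster (GstE1, GstE6 and GstE8) lie between genes with higher estimates.

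The epsilon class has a cluster of 10 genes on arm 2R, from GstE10 to GstE9, with GstE10 on the minus strand. GstE11, GstE12, GstE13 and GstE14 lie elsewhere on the same arm. GstE12 was the most abundant member, at 306, 324 and 231 CPM in FB-Dp110DN libraries 1, 2 and 3 and 250.1, 236 and 176 CPM in the FB-GAL4 libraries. It was higher in each pair, by 0.29, 0.45 and 0.39, although the groups overlapped through replicate 3. The log2 fold change was 0.38 (SE 0.13, 95% interval 0.06 to 0.70, adjusted p = 0.165 by edgeR and 0.054 by DESeq2).

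GstE10 showed the largest estimate of the family. Its CPM was 11.5, 3.09 and 4.93 against 4.89, 2.39 and 2.5, so that FB-Dp110DN library 1 stood above all others. The gene was higher in each pair, with a log2 fold change of 0.88 (SE 0.26, 95% interval 0.24 to 1.51, adjusted p = 0.157 by edgeR and 0.057 by DESeq2), that is 1.84-fold. Leaving out replicate 1 gave 0.71. Summed markers of the Malpighian tubule, the fly's excretory organ, were 329, 105 and 192 CPM in the FB-Dp110DN libraries against 158, 117 and 118 CPM. The sum was highest in the same library, where Uro, the tubule's urate oxidase, was at 165 CPM against 22.9 to 60.6 CPM elsewhere. Irk3 and NaPi-T were also highest in that library, but Irk2 and ZnT35C were not. Irk2 held 37.5 CPM there, against 38.6 and 43.8 CPM in FB-Dp110DN libraries 2 and 3. ZnT35C held 44.7 CPM there, against 48.9 CPM in FB-Dp110DN library 3. All 5 tubule markers were detected, and for 4 of them the estimate was positive. The part of this tissue in the GstE10 result was not tested.

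GstE10 stood at 0.193, 0.053 and 0.116 times the CPM of its neighbour GstE1 in the FB-Dp110DN libraries and at 0.075, 0.041 and 0.042 times in the FB-GAL4 libraries. The ratio was therefore the higher in FB-Dp110DN in each pair. Exons of GstE1 and GstE10 share 20 bp on opposite strands in the annotation used, and as it is unknown whether counting used strand, reads there cannot be assigned with certainty.

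GstE8 was the epsilon gene with the clearest lower estimate. It held 16.8, 13.5 and 10.2 CPM in FB-Dp110DN and 18.6, 19.3 and 16.4 CPM in FB-GAL4. FB-Dp110DN was lower in each pair, but its library 1 overlapped the control range. For GstE8 the log2 fold change was -0.45 (SE 0.17, adjusted p = 0.182 by edgeR and 0.206 by DESeq2). GstE9, its neighbour in the cluster and outside the rule for named genes, held 168, 131 and 102 CPM against 163, 87.0 and 86.9 CPM, an estimate of 0.29 (SE 0.15). GstE9 was 10.0, 9.68 and 9.97 times GstE8 in the FB-Dp110DN libraries and 8.77, 4.49 and 5.29 times in the FB-GAL4 libraries, 2 ranges that did not overlap. The pair was put side by side after its values were seen.

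Several other epsilon genes varied more by day than by group. GstE3, GstE6 and GstE7 were also chosen after their values were seen. GstE3 held 119, 87.0 and 40.3 CPM against 112, 48.1 and 41.8 CPM. Its replicate 1 was high and its replicate 3 low in both groups. GstE7 behaved likewise, at 56.1, 40.5 and 27.3 CPM against 50.2, 40.9 and 24.5 CPM, whereas GstE6 did not, at 73.4, 55.7 and 78.9 CPM against 92.5, 72.9 and 83.1 CPM. Of the 13 epsilon genes tested 8 had a higher and 5 a lower estimate.

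GstE14, the enzyme Noppera-bo, is known from the prothoracic gland and ovary, where it takes part in the cholesterol handling that precedes ecdysteroid synthesis. It was counted 31, 11 and 112 times in the FB-Dp110DN libraries and 47, 14 and 110 times in the FB-GAL4 libraries. In CPM this was 1.36, 0.32 and 3.81 against 1.34, 0.57 and 3.44, so replicate 3 was high and replicate 2 low in both groups. The log2 fold change was -0.13 (SE 0.35, edgeR adjusted p = 0.815), and its sign depended on the setting.

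All 3 omega genes lie next to each other on arm 3L, with the gene sepia between GstO3 and GstO2. GstO1 had the smallest p of the family, and it was lower in FB-Dp110DN. Its CPM was 22.9, 18 and 16.5 in FB-Dp110DN libraries 1, 2 and 3 and 29.2, 33.8 and 24.7 in the FB-GAL4 libraries. Every FB-Dp110DN library was below every FB-GAL4 library, and the pairs differed by -0.35, -0.91 and -0.58. The log2 fold change was -0.61 (SE 0.16, 95% interval -1.0 to -0.22, adjusted p = 0.157 by edgeR and 0.052 by DESeq2), which is 0.653 times the control level.

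GstO3, the most abundant omega gene, went the other way. It held 138, 136 and 57.4 CPM in FB-Dp110DN and 108, 76.6 and 47.3 CPM in FB-GAL4, higher in each pair but with overlapping groups, since replicate 3 was low in both. The log2 fold change was 0.49 (SE 0.15, 95% interval 0.11 to 0.87, adjusted p = 0.157 by edgeR and 0.055 by DESeq2). GstO2 held 96.0, 89.8 and 99.1 CPM against 88.2, 83.1 and 73.4 CPM. Its groups did not overlap, and its log2 fold change was 0.22 (SE 0.13, 95% interval -0.10 to 0.55, edgeR adjusted p = 0.314), or 0.12 without replicate 3.

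The balance between the neighbouring omega genes differed between the groups as a consequence of these values. GstO3 was 6.03, 7.55 and 3.48 times GstO1 by CPM in FB-Dp110DN and 3.69, 2.27 and 1.91 times in FB-GAL4. GstO2 was 4.19, 4.99 and 6.01 times GstO1 in FB-Dp110DN and 3.02, 2.46 and 2.97 times in FB-GAL4. The GstO2 ratio did not overlap between the groups, whereas the GstO3 ratio did through replicate 3. These ratios were formed after the single genes had been seen and carry no test. Reads of such related genes may in part be shared, and GstO2 overlaps sepia by 61 bp on the opposite strand.

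GstS1, the sigma gene, is known as an abundant protein of the indirect flight muscle and acts on products of lipid peroxidation. It held 130.1, 127 and 1466 CPM in FB-Dp110DN libraries 1, 2 and 3 and 115, 122 and 955 CPM in the FB-GAL4 libraries. Both libraries of replicate 3 were thus far above the other 4, 9.60-fold on the log scale average, and GstS1 went from between 5.42% and 7.17% of the family's CPM to 48.7% and 40.9% of it. Summed muscle markers were 9252, 10595 and 42579 CPM in FB-Dp110DN and 7892, 6607 and 22674 CPM in FB-GAL4. Of these 13 markers all were detected in every library. Act88F, the actin of the indirect flight muscle, held 47.3, 100.3 and 4624 CPM against 44.9, 202 and 2500 CPM. Replicate 3 was highest in both groups for every muscle marker but sls, though the rises were of very unlike size. Act57B held 1032, 1223 and 1379 CPM against 899, 875 and 915 CPM, and sls 643, 810 and 882 CPM against 579, 591 and 562 CPM.

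Within pairs GstS1 was higher in FB-Dp110DN by 0.18, 0.07 and 0.62 on the log2 scale, with an estimate of 0.29 (SE 0.17, 95% interval -0.12 to 0.70, edgeR adjusted p = 0.301). The estimate was 0.13 without replicate 3. Of the 13 muscle markers 12 (92.3%) were higher in FB-Dp110DN at an unadjusted p under 0.05, against 13.1% of all genes tested. The median log2 fold change of the 13 was 0.62. By edgeR 0 passed the adjusted threshold (0.0289% of all genes tested), and by DESeq2 11 did (10.7% of all genes with an adjusted p). The part of muscle in the levels of GstS1 was not tested.

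**Figure D5:**
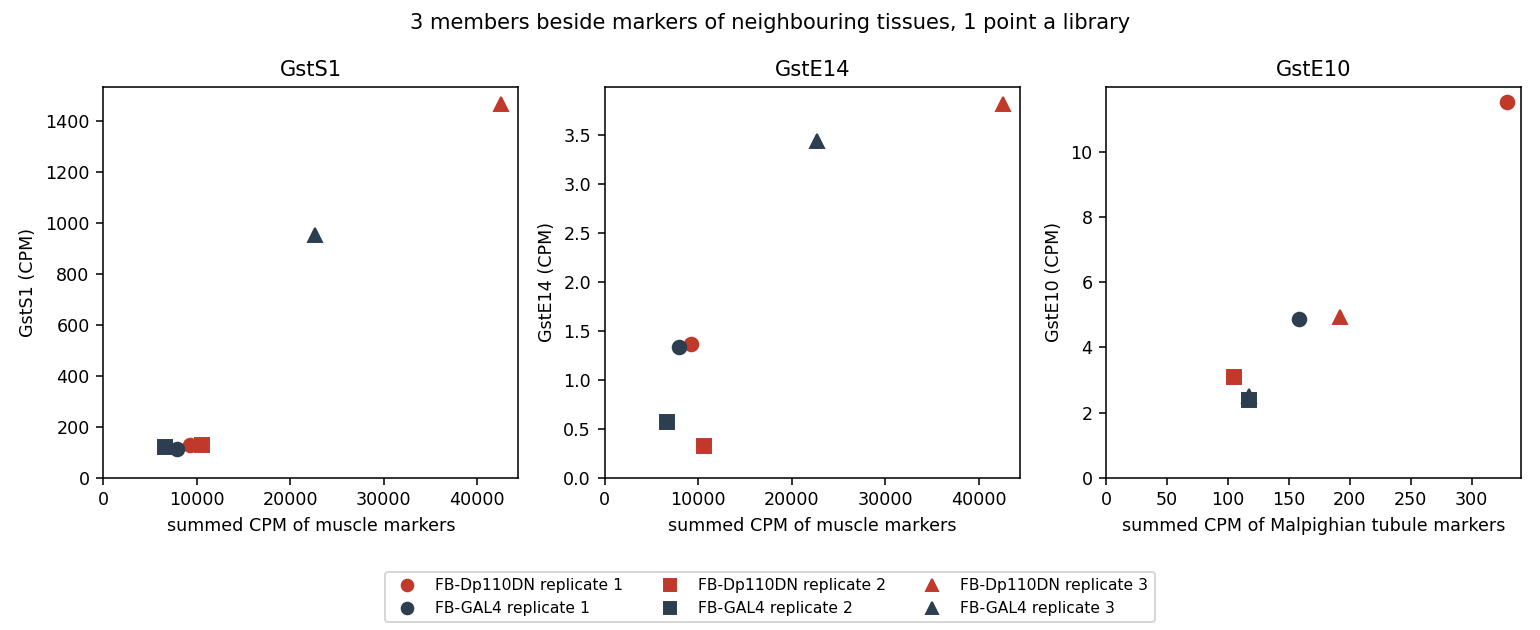
Each point is a library, with the CPM of GstS1, GstE14 or GstE10 against the summed CPM of muscle or Malpighian tubule markers. Both replicate 3 libraries are highest in GstS1 (955 and 1466 CPM) and in muscle markers, and FB-Dp110DN replicate 1 is highest in GstE10 (11.5 CPM) and in tubule markers (329 CPM).

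Among the theta genes, GstT1 and GstT2 are adjacent on arm 2R, and GstT3 and GstT4 lie apart on the X chromosome. GstT4 was the most abundant, at 153, 172 and 163 CPM in FB-Dp110DN against 146, 137 and 102 CPM in FB-GAL4. The groups did not overlap, and the pairs differed by 0.07, 0.33 and 0.67. For GstT4 the log2 fold change was 0.36 (SE 0.16, 95% interval -0.03 to 0.75, edgeR adjusted p = 0.216), or 0.53 without replicate 1 and 0.21 without replicate 3. GstT2 held 21.3, 18.3 and 16.9 CPM against 24.4, 27.4 and 19.0 CPM, lower in each pair, with an estimate of -0.32 (SE 0.15, edgeR adjusted p = 0.243), or -0.18 without replicate 2. It shares 223 of its 887 bp of exon with CG12926 on the opposite strand, so its counts are uncertain. GstT1 held 33.2, 31.4 and 27.2 CPM against 34.4, 33.9 and 30.2 CPM, an estimate of -0.10 (SE 0.12) and a 95% interval of -0.40 to 0.19.

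The zeta genes, named for the class that holds maleylacetoacetate isomerase, are adjacent on arm 3R. GstZ2 held 22.0, 30.3 and 14.0 CPM in FB-Dp110DN and 19.5, 20.0 and 13.5 CPM in FB-GAL4. It was higher in each pair with overlapping groups, and its log2 fold change was 0.28 (SE 0.17, edgeR adjusted p = 0.315), or 0.12 without replicate 2. GstZ1 held 12.8, 9.95 and 13.4 CPM against 12.4, 11.7 and 9.62 CPM, with an estimate of 0.10 (SE 0.20, edgeR adjusted p = 0.774). Per kilobase GstZ1 was the higher of the 2, at 12.8 CPM/kb against 8.55 CPM/kb.

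The other enzymes of tyrosine breakdown, in which zeta GSTs act, were taken as a list of 5 genes. Estimates were positive for all 5, against 53.5% of all genes tested, at a median of 0.49 on the log2 scale. By edgeR 0 were called (0.0289% of all genes tested), and by DESeq2 0 as well (10.7% of all genes with an adjusted p). Tat, the tyrosine aminotransferase of the first step, held 270.0, 282 and 145 CPM against 251, 172 and 89.6 CPM (log2 fold change 0.50, SE 0.17, edgeR adjusted p = 0.163). Faa, the fumarylacetoacetase of the last step, held 37.3, 39.6 and 42.8 CPM against 33.0, 21.3 and 32.5 CPM (log2 fold change 0.49, SE 0.17). The 2 ranges of Faa did not overlap, which held for 32.6% of all genes tested. The homogentisate dioxygenase gene hgo had an estimate of 0.50 (SE 0.24), which was 0.15 without replicate 2 and 0.69 without replicate 3 (edgeR adjusted p = 0.041). Pair 2 carried the list, whose medians were 0.16, 0.89 and 0.14 in pairs 1, 2 and 3, and without replicate 2 the estimate of Faa was 0.29.

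Genes for the supply and use of glutathione outside the family were taken as a further list. Of 12 listed genes 10 were tested, of which 6 had a higher estimate (60%, against 53.5% of all genes) and 4 a lower one. An unadjusted p under 0.05 was reached by 0 of the 10, against 25.6% of all genes tested. Their median log2 fold change was 0.07, and for 4 of the 10 (40%) the groups did not overlap, against 32.6% of all genes. Gclc, the catalytic subunit of the enzyme that begins glutathione synthesis, held 184, 198 and 162 CPM against 176, 169 and 116 CPM, an estimate of 0.26 (SE 0.14) that was 0.16 without replicate 3. MRP, an exporter of glutathione conjugates, held 253, 223 and 242 CPM against 214, 196 and 198 CPM, an estimate of 0.24 (SE 0.13) with no overlap of the groups. Sepia (se), an omega-type enzyme of eye pigment synthesis whose symbol keeps it out of the family as defined, held 1.06, 0.88 and 1.19 CPM against 0.77, 0.57 and 0.44 CPM. Its estimate was 0.83 (SE 0.41, edgeR adjusted p = 0.246), from at most 35 counts in a library, and was 0.54 without replicate 3.

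Other detoxification genes, among them cytochrome P450s, epoxide hydrolases, UDP-glycosyltransferases and Cnc with its partners, numbered 18 tested. Of these 16 had a higher estimate (88.9%, against 53.5% of all genes), and the median log2 fold change of the list was 0.26. An unadjusted p under 0.05 was reached by 5 (27.8%), all higher. Over all genes the share was 25.6% in either direction and 13.1% in that direction. By edgeR 0 were called, and by DESeq2 3 were (10.7% of all genes with an adjusted p). The 3 were Cyp6g1, Cyp6a2 and Cyp12a4, P450 genes known from insecticide resistance. Cyp6g1 held 671, 527 and 380 CPM against 432, 216 and 199 CPM (log2 fold change 0.95, SE 0.17, adjusted p = 0.157 by edgeR and 7.3e-05 by DESeq2). Cyp6a2 held 542, 332 and 139 CPM against 431, 118 and 58.0 CPM (log2 fold change 1.03, SE 0.25, adjusted p = 0.157 by edgeR and 0.002 by DESeq2), so that its days differed more than its groups. Cyp12a4 held 133, 161 and 104 CPM against 99.0, 107 and 64.2 CPM, a log2 fold change of 0.57 (SE 0.13). The regulators Cnc, Keap1 and maf-S, outside the rule for named genes, had estimates of 0.08 (SE 0.14), 0.007 (SE 0.16) and 0.14 (SE 0.18). Without replicate 3 the edgeR count for this list was 4, in a setting that called 875 of 10356 genes tested.

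Across the family most genes differed more between days of preparation than between groups. The span between the 3 days, taken on log2 CPM averaged over both libraries of a day, exceeded the absolute group estimate in 25 of the 32 tested members (78.1%), against 54.4% of all genes tested. The median span was 0.47 in the family and 0.28 over all genes. GstS1 had the widest span (3.28), followed by GstE14 (2.94), both with replicate 3 highest. Spans of 1.49, 1.45, 1.32, 1.25 and 1.23 followed for GstE3, GstE10, GstD8, GstD2 and GstO3, and for GstE3 and GstO3 replicate 3 stood at 0.48 and 0.47 times the average of the other days. At the other end were GstO2 and GstE2, with spans of 0.11 each, and both of these had groups that did not overlap. The date, the share of neighbouring tissues and the preparation of a replicate cannot be told apart in this design.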

How the data were processed

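According to the methods and processing notes, the authors aligned paired-end reads with TopHat2 2.0.11 to BDGP release 5 and obtained gene counts with HTSeq. Its strand setting is not given in the sources used here. The deposited table held raw read counts per gene for the 6 libraries, without normalization, and those counts were the values used. Columns of the authors' own DESeq2 comparison were not used: a mean signal over all libraries, log2 fold changes with their log2 standard errors, a Wald score, p-values and adjusted p-values deposited by the authors.

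Symbols, arms, gene order and exonic length came from the BDGP6 annotation, matched by FlyBase identifier (15002 of 15682 genes). As builds differ, no coordinates are given. The control column numbered 2 was assigned by its title, since the descriptions of control samples 2 and 3 are identical.

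Counts were tested with edgeR 4.0.16 (quasi-likelihood, TMM scaling, filterByExpr, 10398 genes) in R 4.3.3 with group and replicate number as terms. Benjamini-Hochberg adjusted p under 0.05 over all tested genes was a call. The pairing comes from the dates in the series design and the methods. Deviations of same-numbered libraries from their group means correlated across genes at 0.416, 0.189 and 0.590, but FB-Dp110DN 1 with FB-GAL4 2 reached 0.384 and FB-Dp110DN 2 with FB-GAL4 1 0.221, so these values set only replicate 3 apart. Standard errors were derived from F as |log2 fold change| divided by its root. Pair differences used a prior count of 2, and spans between days an offset of 0.05 CPM. Alternatives were no block, DESeq2 1.42.0 size factors, its Wald test, all genes kept, a minimum of 10 counts in each library, each pair left out and an adjusted p under 0.1.

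On simulated counts for the 10398 genes of this comparison, edgeR recovered 63% of genes changed 2-fold and 91% changed 4-fold, and DESeq2 68% and 89%. The simulated counts held no differences between days or in tissue content, so these rates may not hold for the data. In the data edgeR did not call Pi3K92E at 8.31-fold (adjusted p = 0.157).

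Members and lists were chosen with earlier results of these data known. Named genes were, per class, the most abundant member and up to 3 of smallest p, then any called member, GstD1, GstE14 and GstS1, the 3 of smallest p in each related list, and Pi3K92E. 7 listed symbols had no match and were left out. Reads shared among related genes, and antisense overlaps of GstE1 with GstE10, GstE9 with imd, GstE12 with CG3894, GstE13 with CG18659, GstO2 with sepia and GstT2 with CG12926, remain uncertain.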

Additional observations from a re-analysis of the deposited data

How the results depend on the processing

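Over all genes the count of calls was 3 in the model with the replicate block, 0 without the block, 970 by the DESeq2 Wald test, 9 with no filter, and from 0 to 875 when each replicate pair was left out in turn. For the GST members it was 0 throughout, apart from 1 (GstD2) without replicate 3, a range of 0 to 1. At an unadjusted p under 0.05 the members numbered 5, and 1 with no replicate block, and from 2 to 6 with a pair left out. The detoxification list had 0 calls, 3 by the DESeq2 Wald test, and from 0 to 4 with a pair left out. The glutathione list had 0 under every alternative run. The median of the epsilon class lay between 0.081 and 0.20 with a pair left out, and that of the delta class between 0.16 and 0.57. GstE14 turned to 0.032 with no replicate block, and ranged from -0.32 to 0.10 with a pair left out (0.10 without replicate 2). GstZ1 ranged from -0.087 (without replicate 3) to 0.26. The causes were not tested. Of 135 combinations of the 17 named GST genes with an alternative, 132 kept their sign. The smallest adjusted p of any gene was 0.097 with no block, 0.177 without replicate 1 and 0.284 without replicate 2, so these settings could give no call. DESeq2 size factors moved the median of all genes from 0.04 to 0.07. The DESeq2 test gave no adjusted p for GstD4, GstE14, sepia and others, and these have no value under it. Depth limits GstD6, GstD11 and GstE4, which had at most 15 counts in a library.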

Other observations

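Values of the other listed cell types give the setting of the libraries. Summed gut markers were 26752, 28353 and 6204 CPM in FB-Dp110DN replicates 1, 2 and 3, and 21750, 15017 and 6613 CPM in FB-GAL4. Summed oenocyte markers were 13951, 18302 and 10380 CPM against 16784, 13725 and 7662 CPM. Hemocyte markers were 331, 360.0 and 397 CPM against 306, 322 and 361 CPM, and neuronal markers 145, 181 and 151 CPM against 130, 104 and 111 CPM. Germline markers were 1433, 886 and 1907 CPM against 1876, 2176 and 2085 CPM, and eggshell markers 4410, 3187 and 5601 CPM against 5118, 4249 and 4467 CPM. Their part in the levels of GST genes was not tested.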
